A study of Arabidopsis thaliana with 21 samples.

Results

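The transcripts described here stood well above the intact level in Arabidopsis hypocotyls after 3 different treatments: decapitation with the auxin indole-3-acetic acid (IAA) put back, the auxin transport inhibitor NPA, and plain decapitation. A probe set was a member when its group mean exceeded the intact mean by at least 2 on the deposited log2 scale in each of the 3 treatments. Of 22746 probe sets other than controls, 67 met these differences, and 8 were left out by name as the rule asks, among them 2 subtilase genes. This left 59 members, of which 33 name 1 gene and 26 name no gene or several in the probe table used here. The values that chose the members are the same values that show them to be high, so the differences from intact, and any count of them, are a description of the choice.

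The hypocotyl is the stem below the seed leaves. RNA came from hypocotyls of 2-week-old plants, collected 24 h after treatment, with 120 to 150 plants in each of 3 biological replicates per group, and 7 groups gave 21 ATH1 arrays. Lanolin holding less than 10% ethanol was applied in every group, the mutants and the intact plants included. In the order used below, the groups were Col-0 wild type decapitated and given IAA at 3 mg/mL (decapitated + IAA), undecapitated Col-0 given NPA at 3 mg/mL (NPA), decapitated Col-0 given plain lanolin (decapitated), the max2, max1 and max3 mutants given plain lanolin, and intact Col-0 given plain lanolin (intact). The labels name the mutants by gene and give no allele or background strain. NPA was put on plants that kept their shoot tip, so that group lacks the wound of decapitation.

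Auxin made in the shoot tip moves down the stem by polar transport and holds back the outgrowth of side branches. Cutting off the tip removes the source, NPA blocks the transport, and IAA on the cut stump is the classical way to replace the tip's auxin. Strigolactones are branch-inhibiting hormones: MAX1 and MAX3 act in their synthesis, and MAX2 in the response to them.

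Array medians lay between 6.11 and 6.35, arrays of the same group correlated at 0.985 to 0.995, and no pair of arrays was identical. Among genes of a list of auxin response genes, all 8 of 11 that could be measured rose in decapitated + IAA against decapitated hypocotyls, with a median difference of 5.78 (limma, adjusted p below 0.05), against a median of -0.04 over all probe sets. All 8 were also called higher in decapitated + IAA than in intact plants, with a median difference of 3.59 against -0.02 over all probe sets. Applied IAA thus took these genes past the intact level. Of markers of neighbouring organs, the shoot apex gene CLV3 averaged 1.99 in decapitated + IAA and 2.01 in decapitated hypocotyls. The root hair expansin genes EXPA7 and EXPA18 lay at 1.84 and 1.95 in decapitated + IAA, and at 1.87 and 1.86 in decapitated hypocotyls. These values sit in the low peak of the arrays, below 3.5. The leaf photosynthesis genes RCA and LHCB4.2, 2 of 10 leaf blade markers measured, averaged 12.46 and 11.97 in decapitated + IAA against 13.34 and 12.18 in decapitated hypocotyls, and neither passed the test in that comparison or in any treatment against intact. None of the 9 vascular markers had a probe set naming it alone. In bulk tissue, a change in the share of a cell type and a change in RNA per cell cannot be told apart.

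Averaged over the 59 members, single arrays held 7.84, 8.19 and 8.16 in decapitated + IAA, 9.01, 9.05 and 8.90 with NPA, and 8.74, 8.66 and 8.40 after decapitation. The mutants held 4.74, 5.05 and 5.54 in max2, 5.09, 5.42 and 5.41 in max1, and 5.83, 5.31 and 5.65 in max3. Intact arrays held 4.77, 5.04 and 4.51. Every array of the 3 treatments lay above every array of the mutants and of intact plants. The choice of high treated and low intact values favours this order, so nothing is read from it. The median difference from intact was 2.84 for decapitated + IAA (range 2.00 to 6.55), 4.00 for NPA (2.01 to 9.18) and 3.53 for decapitation (2.08 to 8.59). Over all probe sets the corresponding medians were -0.02, 0.04 and 0.03.

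By limma at an adjusted p below 0.05, 54 members were called above intact in decapitated + IAA, against 3.89% of all probe sets. The counts were 58 members for NPA (13.9% of all) and 58 for decapitation (12.8% of all). These counts follow from the choice of members. They carry no weight as a test. Every decapitated + IAA array was above every intact array in 59 members (9.49% of all probe sets), and the same held for NPA in 58 (27.1%) and for decapitation in 58 (17.4%).

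The rule was also applied to 2 replicate numbers at a time, and the probe sets it then chose were read in the number left out. These sets held 56, 56 and 50 of the 59 members without numbers 1, 2 and 3. All 3 numbers took part in choosing the 59, so the reading is no independent check of them. When members were chosen on replicate numbers 2 and 3 alone, 65 probe sets met the rule, and in replicate 1, which had not been used, all 3 differences were above 0 in 59 of them and at least 2 in 41. Choosing on numbers 1 and 3 gave 67, of which 65 were above 0 and 40 at least 2 in replicate 2. Choosing on numbers 1 and 2 gave 60, of which 60 were above 0 and 45 at least 2 in replicate 3. Of all probe sets, 46.4%, 21.1% and 19.8% had all 3 differences above 0 in replicates 1, 2 and 3, and 0.295%, 0.334% and 0.426% had all 3 at least 2. The 3 differences within a replicate share its intact array.

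The intact level was low for many members. It averaged below 3.5 in 21 of the 59, close to the 36.2% of all probe sets there, and in 14 members intact and all 3 mutant means lay below 3.5. For those genes the size of the difference depends on where the low peak of the array sits. The median replicate SD of the members was 0.49 in intact plants and 0.35 with NPA, against 0.14 for all probe sets in both groups.

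**Figure D1:**
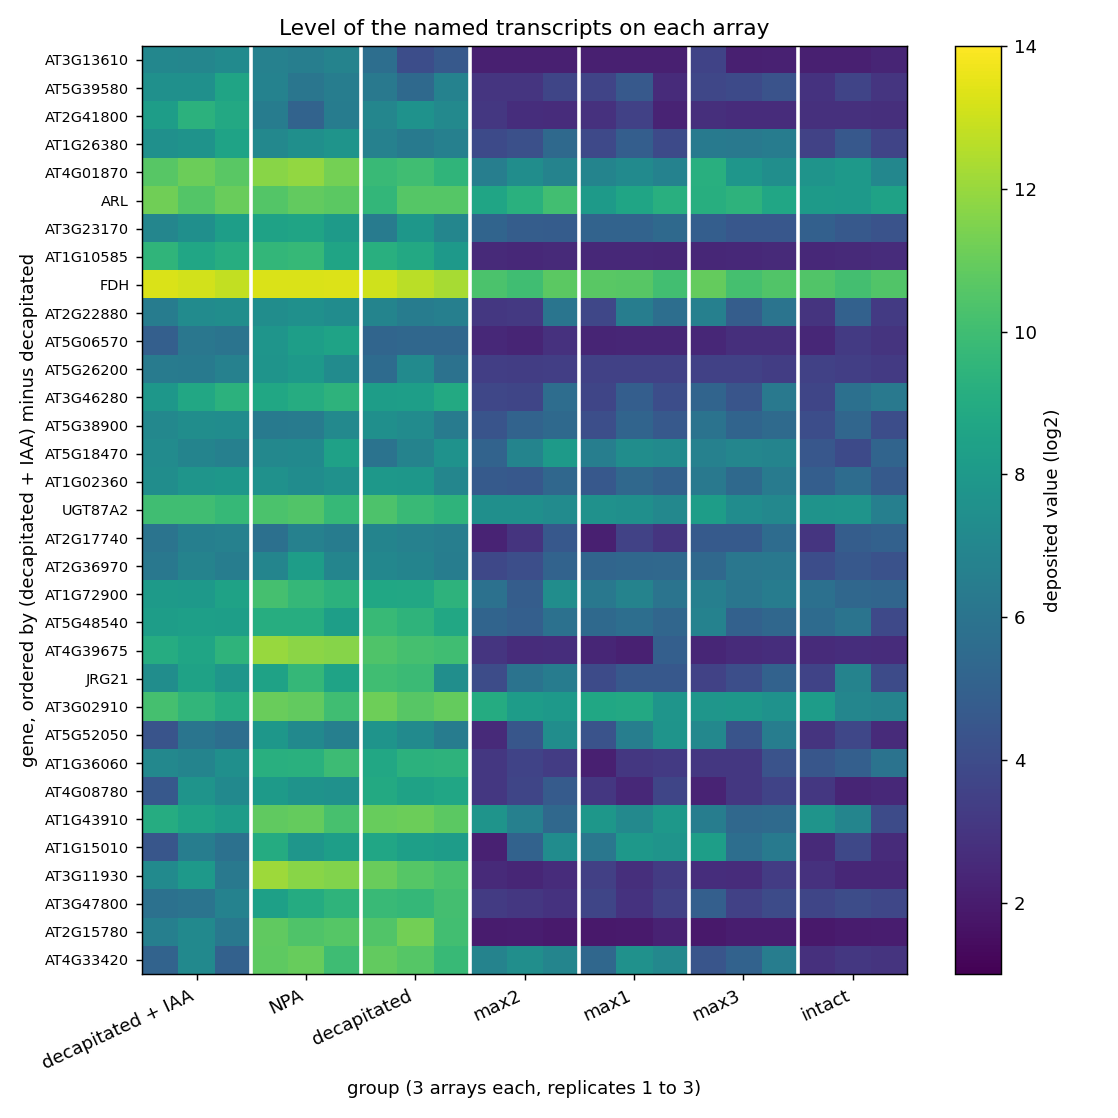
Deposited log2 values of the 33 named members on each of the 21 arrays, 3 per group, with genes ordered from the most positive to the most negative mean difference of decapitated + IAA minus decapitated. The 9 arrays of the 3 treatments at the left are brighter than the mutant and intact arrays at the right for most genes, and the genes at the bottom are dimmer in decapitated + IAA than with NPA or after decapitation.

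The label of this set, transcripts staying high despite IAA, covers 3 patterns when decapitated + IAA is set against decapitated hypocotyls. In 29 of the 59 members the means of the groups differed by less than 1. In 21 members decapitated + IAA was lower by 1 or more, including 10 lower by 2 or more, and in 9 members it was higher by 1 or more. Of these, 15, 13 and 5 members name 1 gene, and the rest cannot be named here. Those lower with IAA were at least 2 above intact all the same, which the rule requires. By limma, 7 members were called higher (11.0% of all probe sets) and 14 lower (11.9% of all), and the higher count was 4 without the third decapitated + IAA array. Every decapitated + IAA array lay above every decapitated array in 10 members (15.0% of all) and below in 23 (32.3% of all), and in 26 the arrays overlapped. Because these arrays took part in choosing the members, the differences below carry a standard error (SE) and no p.

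A first group of members had nearly the same level with and without IAA. AT1G10585 encodes a transcription factor of the basic helix-loop-helix family. It held 9.51, 8.72 and 9.11 in decapitated + IAA, 9.58, 9.72 and 8.58 with NPA, and 9.21, 8.85 and 8.05 after decapitation. In intact plants it held 2.51, 2.56 and 2.66, and the 9 mutant arrays lay between 2.47 and 2.57. The 3 treatments overlapped with each other and left a wide gap to all other arrays, and decapitated + IAA minus decapitated was 0.41 (SE 0.29).

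FDH encodes formate dehydrogenase, a mitochondrial enzyme that oxidises formate. It held 13.26, 13.11 and 12.83 in decapitated + IAA, 13.26, 13.29 and 13.33 with NPA, 13.04, 12.66 and 12.28 after decapitation, and 10.46, 10.09 and 10.46 in intact plants. FDH is an example of a member that was not low to begin with: 5 of the 33 named members had an intact mean of 7 or more. The others were AT4G01870, AT3G02910, UGT87A2 and ARL.

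ARL, related to the organ size gene ARGOS and acting in cell expansion, held 11.20, 10.54 and 11.05 in decapitated + IAA, 10.52, 10.85 and 10.71 with NPA, 9.60, 10.57 and 10.58 after decapitation, and 8.07, 7.96 and 8.47 in intact plants. One decapitated array was lower than the rest of the treated arrays, and the others overlapped. UGT87A2, a glycosyltransferase that attaches sugars to small molecules, averaged 9.93 ± 0.18 in decapitated + IAA, 10.17 ± 0.40 with NPA, 9.88 ± 0.44 after decapitation and 7.34 ± 0.61 in intact plants (SD, n = 3 each). A second glycosyltransferase gene, AT2G36970, had smaller differences from intact, 2.19 in decapitated + IAA, 3.03 with NPA and 2.48 after decapitation.

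Another 10 named members lay within 1 of the decapitated level with IAA. They include AT1G02360, of the chitinase family, whose decapitated + IAA mean of 7.68 and decapitated mean of 7.57 differed by 0.10 (SE 0.33). AT5G18470 encodes a mannose-binding lectin family protein, and its difference was 0.14 (SE 0.61). AT5G26200, of the mitochondrial carrier family, differed by 0.25 (SE 0.29), AT5G38900, a thioredoxin-like protein gene, by 0.19 (SE 0.39), and AT2G22880, which encodes a VQ motif protein, by 0.39 (SE 0.80). AT1G72900, a TIR domain gene of the kind found in plant immune receptors, differed by -0.79 (SE 0.46). Every decapitated + IAA array of AT1G72900 lay below every decapitated array. AT3G23170 differed by 0.48 (SE 0.35), AT3G46280 by 0.23 (SE 0.67) and AT2G17740 by -0.25 (SE 0.58). The SEs of AT2G22880, AT5G18470 and AT3G46280 leave room for differences of 1 in either direction. For the other genes too, a difference within 1 does not show that the levels were equal.

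**Figure D2:**
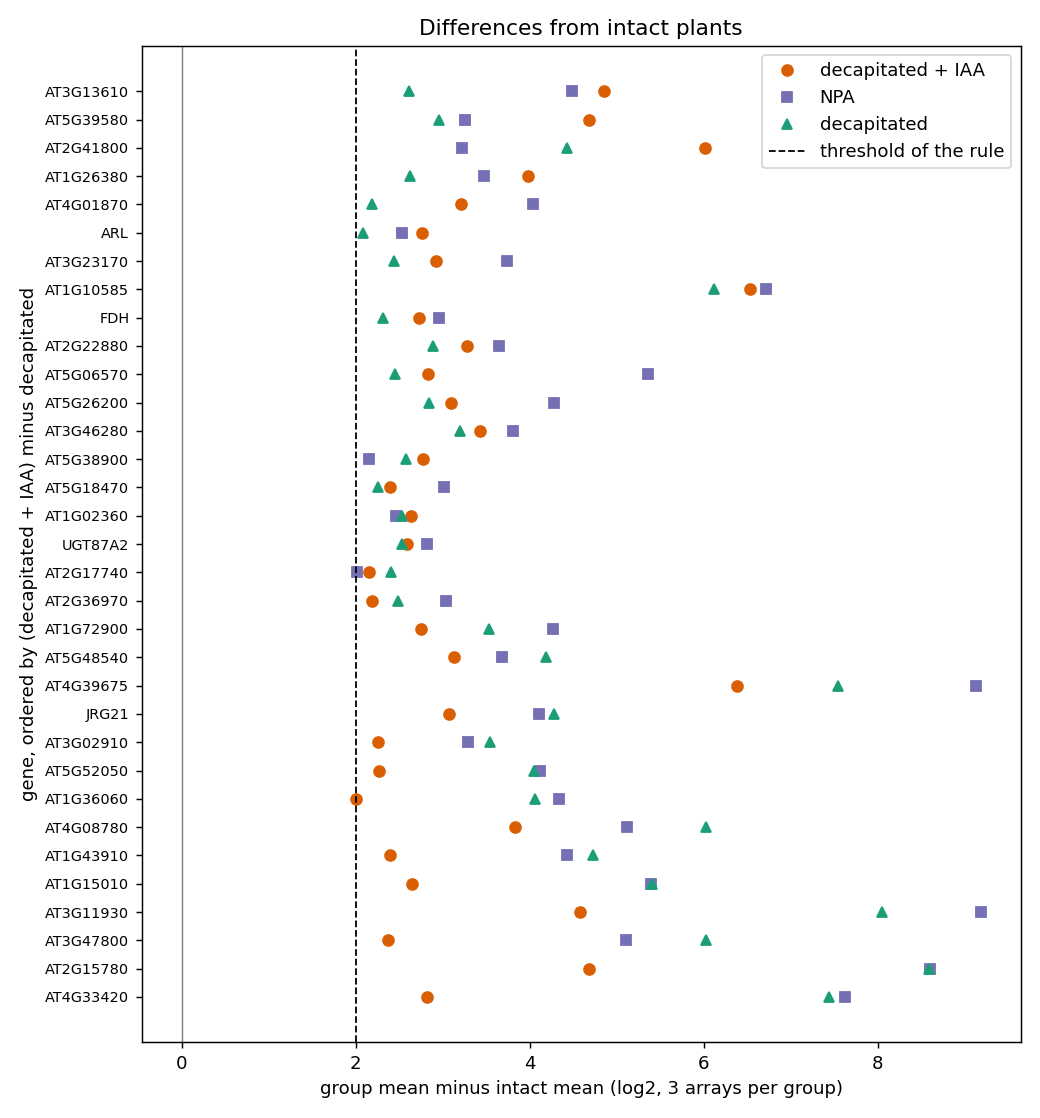
Mean differences from intact on the log2 scale for the 33 named members in decapitated + IAA (circles), NPA (squares) and decapitated hypocotyls (triangles), 3 arrays per group, with the rule's threshold of 2 as a dashed line. All points lie at or right of the threshold by construction; circles lie right of triangles at the top, where AT3G13610 differs by 2.24, and far left of them at the bottom, where AT4G33420 differs by -4.63.

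A second group was lower with IAA yet stayed above intact. AT4G33420 encodes a class III peroxidase, one of the secreted enzymes that use hydrogen peroxide to cross-link or loosen cell wall polymers. It held 5.15, 7.15 and 5.03 in decapitated + IAA, 10.78, 11.00 and 9.98 with NPA, 10.90, 10.57 and 9.76 after decapitation, and 2.81, 3.10 and 2.97 in intact plants. Decapitated + IAA lay between the other groups, below every decapitated array and above every intact array. The difference between decapitated + IAA and decapitated was -4.63 (SE 0.64), and that between decapitated + IAA and intact was 2.81.

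AT2G15780, a cupredoxin gene, and AT3G11930, of the universal stress protein family, behaved alike in having intact values at the bottom of the scale. AT2G15780 held 6.62, 7.18 and 6.22 in decapitated + IAA, 10.82, 10.41 and 10.55 with NPA, 10.46, 11.23 and 10.05 after decapitation, and 1.90, 2.02 and 2.06 in intact plants. AT3G11930 held 7.20, 8.03 and 6.25 in decapitated + IAA, 12.12, 11.67 and 11.52 with NPA, 11.05, 10.58 and 10.28 after decapitation, and 2.83, 2.44 and 2.47 in intact plants. In both genes the IAA arrays sat apart from the decapitated arrays and from the intact arrays. The differences between decapitated + IAA and decapitated were -3.91 (SE 0.25) for AT2G15780 and -3.48 (SE 0.35) for AT3G11930.

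AT3G47800 encodes a galactose mutarotase-like protein. It held 5.87, 5.99 and 6.78 in decapitated + IAA, 8.38, 8.99 and 9.44 with NPA, 9.80, 9.66 and 10.13 after decapitation, and 3.73, 4.02 and 3.76 in intact plants. The 4 groups did not overlap, with decapitation highest. AT1G15010 held 4.49, 6.53 and 5.85 in decapitated + IAA, 9.00, 7.84 and 8.28 with NPA, 8.67, 8.34 and 8.16 after decapitation, and 2.54, 3.80 and 2.60 in intact plants. Its lowest IAA array was less than 1 above its highest intact array, and its difference from decapitated was -2.76 (SE 1.01).

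AT1G43910, which encodes an ATPase of the AAA family, held 9.06, 8.55 and 8.20 in decapitated + IAA, 10.80, 10.91 and 10.20 with NPA, 11.00, 11.07 and 10.75 after decapitation, and 7.72, 6.93 and 3.98 in intact plants. The third intact array was far below the other 2, so the intact mean, and with it the difference of 2.39 in decapitated + IAA, leans on that array. AT4G08780, another class III peroxidase, held 4.58, 7.74 and 7.15 in decapitated + IAA, 8.10, 7.66 and 7.57 with NPA, 8.87, 8.47 and 8.71 after decapitation, and 3.10, 2.36 and 2.51 in intact plants. One IAA array was well below the others. Prx37, a peroxidase gene next to AT4G08780 in the reference annotation, missed the rule with a smallest difference of 1.89, and whether the probe sets of these related genes share signal was not tested.

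AT1G36060, an AP2/ERF transcription factor gene, held 7.08, 6.85 and 7.48 in decapitated + IAA, 9.20, 9.27 and 9.93 with NPA, 8.80, 9.37 and 9.41 after decapitation, and 4.50, 4.95 and 5.95 in intact plants. With a difference from intact of 2.00 in decapitated + IAA it lay just inside the threshold. AT3G02910, an AIG2-like gene, differed from decapitated by -1.29 (SE 0.41) in decapitated + IAA, and AT5G52050, a MATE family efflux carrier gene, by -1.78 (SE 1.06). AT5G48540, whose product resembles the secreted cysteine-rich part of receptor-like kinases, differed by -1.06 (SE 0.51).

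AT4G39675 had the highest mean difference from intact of the named members. It held 9.05, 8.63 and 9.44 in decapitated + IAA, 11.98, 11.73 and 11.64 with NPA, 10.40, 10.15 and 10.02 after decapitation, and 2.60, 2.69 and 2.66 in intact plants. The 3 treatments formed 3 steps without overlap, with NPA highest and decapitated + IAA lowest. The difference between decapitated + IAA and decapitated was -1.15 (SE 0.48), and that between NPA and decapitated was 1.59 (SE 0.48).

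Another group was higher with IAA than after decapitation alone. AT3G13610 encodes feruloyl-CoA 6'-hydroxylase, which makes the precursor of the coumarin scopoletin, an antimicrobial and iron-mobilising phenolic. Its arrays lay between 6.94 and 7.20 in decapitated + IAA, and it held 6.72, 6.54 and 6.79 with NPA, 5.68, 4.09 and 4.66 after decapitation, and 2.13, 2.14 and 2.32 in intact plants. IAA and NPA arrays lay above all decapitated arrays. The differences from decapitated were 2.24 (SE 0.35) for decapitated + IAA and 1.88 (SE 0.35) for NPA.

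AT2G41800, which encodes a cell wall protein of the DUF642 family, held 8.23, 9.35 and 8.87 in decapitated + IAA, 6.46, 5.13 and 6.46 with NPA, 6.95, 7.63 and 7.10 after decapitation, and 2.82, 2.81 and 2.76 in intact plants. Here IAA and NPA lay on opposite sides of the decapitated arrays without overlap, and the difference between decapitated + IAA and decapitated was 1.59 (SE 0.36). AT5G39580, the third class III peroxidase among the named members, held 7.54, 7.50 and 8.59 in decapitated + IAA, 6.77, 6.09 and 6.49 with NPA, 6.25, 5.45 and 6.76 after decapitation, and 2.92, 3.67 and 2.99 in intact plants. The 3 peroxidase genes thus differed in how they stood with IAA: AT5G39580 was 1.73 (SE 0.46) above decapitated, while AT4G08780 was at -2.19 (SE 0.63) and AT4G33420 at -4.63.

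AT1G26380, a berberine bridge enzyme-like oxidase gene whose product acts in the synthesis of pathogen-induced defence metabolites, held 7.55, 7.70 and 8.55 in decapitated + IAA, 7.08, 7.48 and 7.72 with NPA, 6.74, 6.31 and 6.65 after decapitation, and 3.55, 4.60 and 3.69 in intact plants. Its difference between decapitated + IAA and decapitated was 1.36 (SE 0.40). AT4G01870, a TolB-related gene, held 10.64, 11.08 and 10.66 in decapitated + IAA, 11.71, 11.89 and 11.29 with NPA, 9.80, 10.02 and 9.52 after decapitation, and 7.74, 8.02 and 7.01 in intact plants. The 4 groups of AT4G01870 did not overlap, with NPA highest, and its difference between decapitated + IAA and decapitated was 1.02 (SE 0.38).

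**Figure D3:**
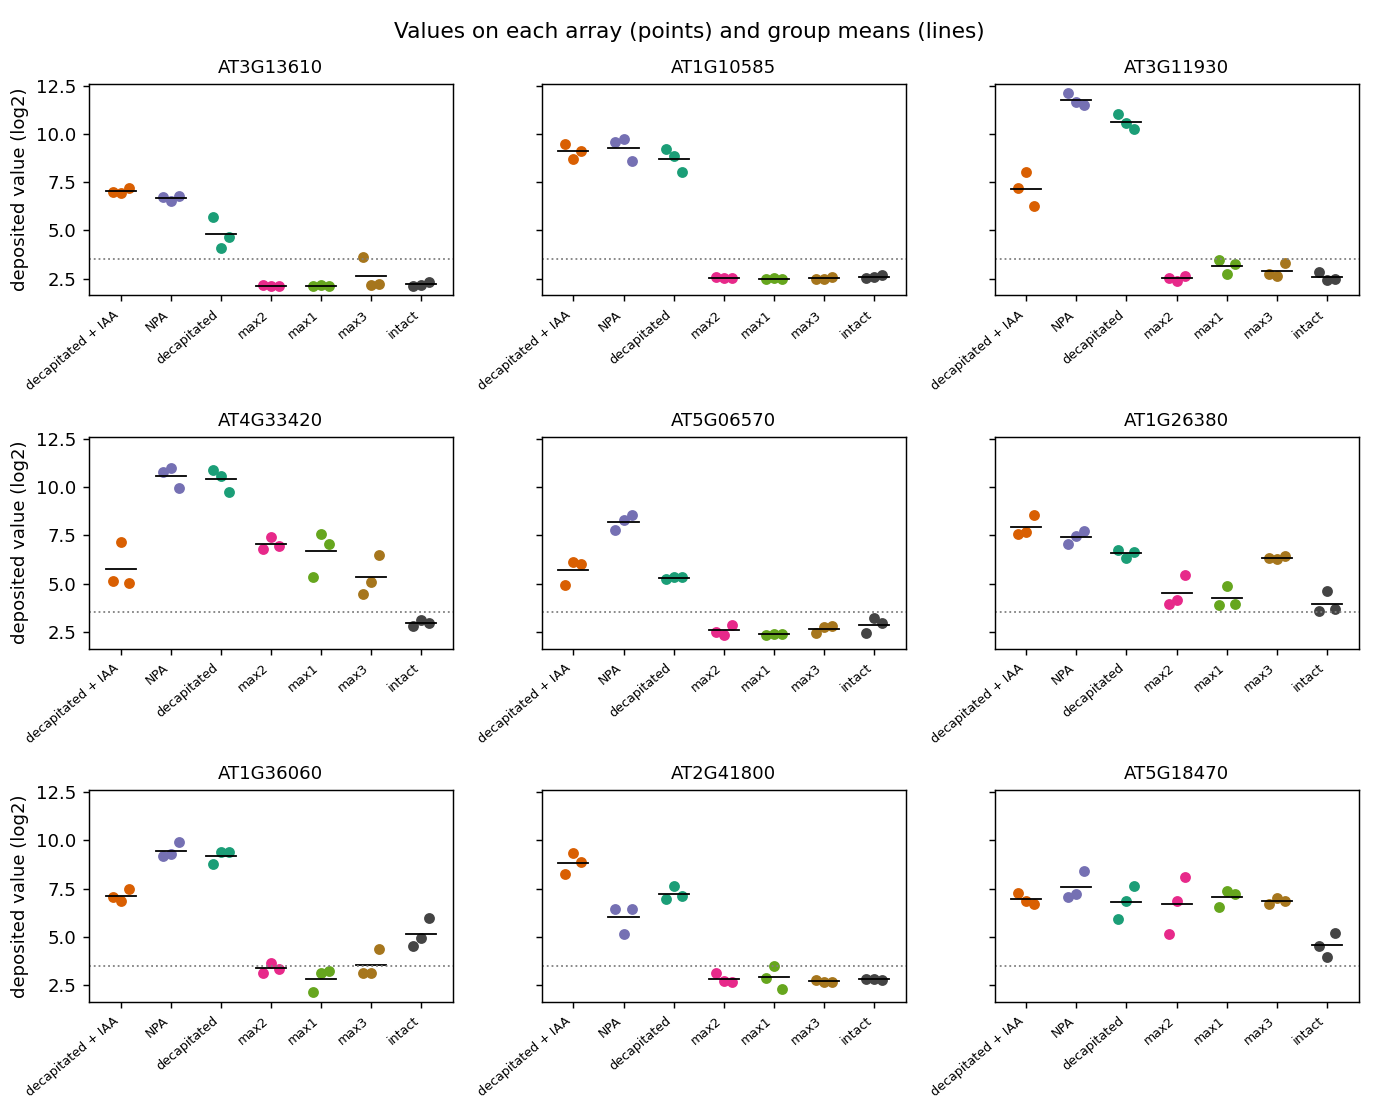
Deposited log2 values of 9 members on every array (points) with group means (short lines), and a dotted line at 3.5, below which values crowd near the low end. AT1G10585 is level across the 3 treatments, AT3G11930 and AT4G33420 are lower with IAA, AT3G13610 and AT2G41800 are higher with IAA, and AT5G06570 is highest with NPA; the mutants stand near intact except in AT4G33420, AT5G18470, AT1G36060 and, in max3, AT1G26380.

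NPA gave the highest of the 3 treated means in 31 members, decapitation in 16 and decapitated + IAA in 12. Between NPA and decapitation, 8 members were called higher (1.12% of all probe sets) and 0 lower (1.23% of all) by limma. At an unadjusted p below 0.05 there were 20 members, of which 16 were higher, and 13.4% of all probe sets passed that threshold. Every NPA array lay above every decapitated array in 19 members (7.74% of all) and below in 5 (7.08% of all). The median difference over the members was 0.45, against 0.01 over all probe sets. As both groups entered the rule, these counts are a description.

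The largest NPA minus decapitated difference among the named members was that of AT5G06570, a carboxylesterase family gene whose product has been reported to cleave strigolactones. It held 4.93, 6.13 and 6.01 in decapitated + IAA, 7.80, 8.30 and 8.54 with NPA, 5.23, 5.32 and 5.36 after decapitation, and 2.43, 3.20 and 2.94 in intact plants. All NPA arrays lay above all other arrays, and the difference between NPA and decapitated was 2.91 (SE 0.27). Of the other named genes called higher with NPA, AT3G13610 and AT4G01870 are given above, and AT5G26200 had a difference of 1.44 (SE 0.29).

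JRG21 encodes a jasmonate oxidase, which hydroxylates the wound hormone jasmonate and so inactivates it. It was the only named member on the list of jasmonate genes. It held 7.36, 8.47 and 7.82 in decapitated + IAA, 8.51, 9.68 and 8.55 with NPA, 10.01, 9.84 and 7.40 after decapitation, and 3.62, 6.81 and 3.99 in intact plants. One intact array, at 6.81, came within 1 of the lowest treated arrays. AT2G38240, which encodes an enzyme of the same small family and is no member, held 2.13, 3.70 and 2.59 in decapitated + IAA, 5.61, 6.79 and 5.42 with NPA, 7.67, 7.56 and 5.41 after decapitation, and 2.81, 3.28 and 2.18 in intact plants. In that gene the decapitated + IAA and intact arrays overlapped. Other genes of the jasmonate list differed from it and from each other. AT5G05600 averaged 8.05 in decapitated + IAA, 10.14 with NPA, 10.18 after decapitation and 8.13 in intact plants. AT3G11180 stayed low in the same groups, at 2.44, 2.34, 2.41 and 2.26. AT2G38240 fell by 4.07 (SE 0.69) in decapitated + IAA against decapitated hypocotyls (limma, adjusted p = 0.000423), and rose by 4.13 (SE 0.69) after decapitation against intact plants (adjusted p = 0.00028). Whether JRG21 and AT2G38240 differ in their change with IAA was not tested.

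Of 31 jasmonate genes 7 were measured, JRG21 included. In decapitated + IAA against intact plants, 1 was called higher, JRG21 itself, and 1 lower. With NPA 3 were higher and 0 lower, and after decapitation 3 were higher and 1 lower. JRG21 is counted among the higher genes in each treatment, and its calls follow from the choice of members. The others higher with NPA and after decapitation were AT2G38240 and AT5G05600. The gene lower in decapitated + IAA was ORA47, a transcription factor gene of jasmonate synthesis, at 5.58 against 8.30 in intact plants (SE of the difference 0.80, limma, adjusted p = 0.0475). That call was lost without any one of the arrays of either group, with adjusted p from 0.0537 to 0.153.

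Other lists held none of the 33 named members. The 26 members naming no gene or several could not be placed on any list, the jasmonate list included. Among genes of chemical detoxification, 6 of 34 were measured, and 3 were higher and 0 lower in decapitated + IAA against intact, 2 higher and 1 lower with NPA, and 2 higher and 0 lower after decapitation. One of them, UGT73B5, is like UGT87A2 a glycosyltransferase gene. It held 6.13, 6.75 and 6.30 in decapitated + IAA, 7.38, 7.51 and 6.94 with NPA, 6.06, 5.93 and 5.90 after decapitation, and 5.33, 4.91 and 5.01 in intact plants. UGT73B5 rose by 2.20 (SE 0.30) with NPA (limma, adjusted p = 5.17e-05) and by 1.31 (SE 0.30) in decapitated + IAA (adjusted p = 0.0133), and the call in decapitated + IAA was lost without the second decapitated + IAA array (adjusted p = 0.0672).

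Of 20 senescence genes 4 were measured, with 1 higher in decapitated + IAA, 2 with NPA and 2 after decapitation, and 0 lower in each. Of 26 sugar starvation genes 3 were measured, with 1, 3 and 2 higher in the same order and 0 lower. None of the 5 measured of 25 abscisic acid and dehydration genes, nor the 1 measured of 19 wound and touch genes, was called in a treatment against intact. No gene of the salicylate and pathogen response list (19) or of the suberin list (14) had a probe set naming it alone. Of the low-oxygen genes, some of which the rule left out by name, 9 of 23 were measured, with 5 higher and 0 lower in decapitated + IAA, 7 higher and 1 lower with NPA, and 6 higher and 1 lower after decapitation.

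The max mutants took no part in the rule. Comparisons among the mutants are therefore independent of it, whereas those with intact plants use the intact arrays, in which the members had to be low. That choice favours a rise over intact, so the members' counts and adjusted p values against intact are a description. The alternatives reuse the intact arrays and are no independent check. In all 3 mutants at once, 29 of the 59 members were within 1 of intact, against 93.7% of all probe sets, and 8 were at least 1 above intact in all 3, against 1.17% of all. The members' median replicate SD in intact plants was 0.49, against 0.14 for all probe sets. This wider spread and the choice of low intact values both bear on these shares, so no effect of the mutants on the set is read from them. The mean of the 3 mutants minus intact had a median of 0.33 over the members, with 43 positive and 16 negative, against -0.03 over all probe sets, of which 33.1% were positive. By limma, 6 members were called higher in the pooled mutants (2.59% of all probe sets) and 1 lower (2.68% of all). With the replicate number as a block, these counts were 9 and 1. Over all probe sets the block gave 950 higher and 1060 lower, against 590 and 610 without it. Without intact replicate 1 or 3 the members' higher count was 3 (362 and 405 of all probe sets), and without max1 replicate 2 their lower count was 2 (531 of all). Every mutant array lay above every intact array in 3 members (2.66% of all) and below in 1 (3.3% of all).

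The gene called in the pooled mutants with the largest change among the named members was the peroxidase gene AT4G33420. It held 6.81, 7.42 and 6.94 in max2, 5.35, 7.59 and 7.04 in max1, 4.45, 5.08 and 6.50 in max3, and 2.81, 3.10 and 2.97 in intact plants. No mutant array overlapped the intact arrays, and max3 was the lowest mutant group by mean. The pooled mutants exceeded intact plants by 3.39 (SE 0.53, limma, adjusted p = 0.00126), and the gene was called under all 18 alternatives run. The difference was 4.10 in max2 (adjusted p = 0.00196), 3.70 in max1 (adjusted p = 0.00394) and 2.38 in max3, the last without passing. The max1 call was lost when only max1 and intact arrays were fitted (adjusted p = 0.0878).

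AT1G36060, the AP2/ERF gene, went the other way. It held 3.11, 3.62 and 3.33 in max2, 2.13, 3.12 and 3.23 in max1, 3.09, 3.10 and 4.34 in max3, and 4.50, 4.95 and 5.95 in intact plants. All mutant arrays lay below all intact arrays. AT1G36060 fell by 1.90 (SE 0.33) in the pooled mutants (limma, adjusted p = 0.00341) and kept its call under all 18 alternatives, while it stood 2.00 or more above intact in the 3 treatments.

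The probe set 260408_at, which has no gene name here, was the only member called in each mutant. It held 8.59, 7.87 and 8.90 in max2, 6.72, 7.02 and 7.12 in max1, 7.53, 7.01 and 7.80 in max3, and 4.75, 5.97 and 5.66 in intact plants. Its pooled difference was 2.15 (SE 0.30, limma, adjusted p = 0.000513), with calls under all 18 alternatives. Its single calls were weaker: with only the groups compared in the fit, the adjusted p was 0.0855 in max2, 0.157 in max1 and 0.136 in max3, and the max1 call was lost without intact replicate 1 or 3 or any one max1 array, with adjusted p from 0.0579 to 0.136. In the treatments 260408_at held 12.38, 11.59 and 12.09 in decapitated + IAA, 9.85, 9.24 and 9.44 with NPA, and 10.64, 10.73 and 9.67 after decapitation. It thus lay highest in decapitated + IAA.

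The remaining calls in the pooled mutants depended on single arrays. The lectin gene AT5G18470 held 5.14, 6.84 and 8.09 in max2, 6.55, 7.39 and 7.24 in max1, 6.70, 6.98 and 6.88 in max3, and 4.53, 3.92 and 5.18 in intact plants, and 1 max2 array fell inside the intact range. The pooled difference of AT5G18470 was 2.32 (SE 0.50, limma, adjusted p = 0.0116), and the call was lost without the first intact array (adjusted p = 0.0517) or the second (adjusted p = 0.0792). In the treatments its differences from intact were 2.39 in decapitated + IAA, 3.02 with NPA and 2.25 after decapitation.

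AT1G15010 held 2.17, 5.09 and 7.32 in max2, 6.17, 7.95 and 7.74 in max1, 8.28, 5.71 and 6.38 in max3, and 2.54, 3.80 and 2.60 in intact plants, with max2 spread over the whole range. The pooled difference of AT1G15010 was 3.33 (SE 0.82, limma, adjusted p = 0.0276), and the call was lost without any one of the intact arrays (adjusted p = 0.11, 0.0531 and 0.114 without replicates 1, 2 and 3). The unnamed 263096_at had a pooled difference of 0.90 (SE 0.19, limma, adjusted p = 0.0117), lost without the second intact array (adjusted p = 0.0501) or the third (adjusted p = 0.0706). The other pooled call, on a further probe set without a gene name, was lost under 7 of 18 alternatives.

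**Figure D4:**
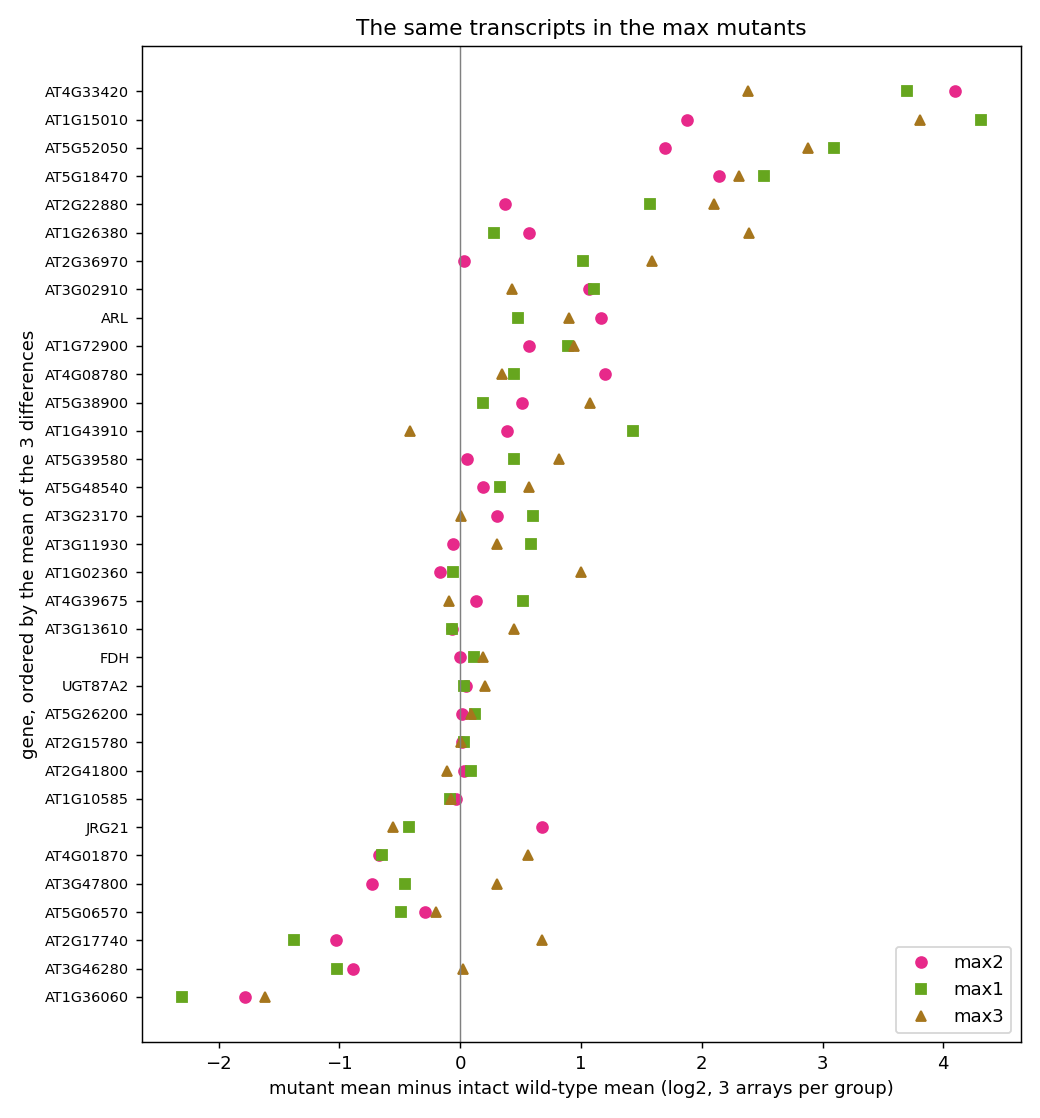
Mean differences of max2 (circles), max1 (squares) and max3 (triangles) from intact wild type on the log2 scale for the 33 named members, 3 arrays per group, ordered by the mean of the 3. AT4G33420 is at the top with 4.10, 3.70 and 2.38, AT1G36060 is at the bottom with values below -1.6, and AT1G10585, AT2G41800 and AT2G15780 lie near 0 in all 3 mutants.

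Set one by one against intact plants, max2 had 3 members called higher (1.65% of all probe sets) and 1 lower (1.47% of all). In max1 5 were higher (1.92% of all) and 1 lower (1.82% of all), and in max3 4 were higher (0.998% of all) and 0 lower (1.02% of all). With the replicate number as a block the higher counts were 6 in max2, 8 in max1 and 8 in max3, and the lower counts 1, 2 and 1. Of all 22746 probe sets the block called 590, 697 and 487 higher and 579, 721 and 484 lower in the same order. Leaving out 1 array also moved the members' counts. The higher count in max1 was 2 without intact replicate 1 or max1 replicate 2 or 3, and 3 without intact replicate 3, and that in max3 was 2 without intact replicate 1 or 3. The lower count in max2 was 0 without intact replicate 2 or 3 or any max2 array. It was 2 in max1 without max1 replicate 2, and 1 in max3 without intact replicate 1 or max3 replicate 3.

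Between the mutants few members differed. The contrast of max2, the mutant blocked in the response to strigolactones, with the mean of max1 and max3, the mutants blocked in synthesis, gave 0 members called higher (0.0747% of all probe sets) and 1 lower (0.0967% of all). At an unadjusted p below 0.05 there were 1 higher and 8 lower, and 4.72% of all probe sets passed that threshold. The member called was 252115_at, without a gene name. It held 2.79, 3.77 and 3.42 in max2, 7.53, 5.69 and 8.44 in max1, 8.43, 7.44 and 7.38 in max3, and 5.55, 4.92 and 3.39 in intact plants, so max2 lay below both other mutants without overlap. Its difference was -4.15 (SE 0.73, limma, adjusted p = 0.0344), and the replicate block gave an adjusted p of 0.0542. The call was lost in 10 of 15 alternatives, among them those without any one of the max2 arrays (adjusted p = 0.176, 0.122 and 0.0623 without replicates 1, 2 and 3), any one of the max3 arrays (0.0806, 0.0547 and 0.0662), or max1 replicate 1 or 3 (0.0671 and 0.0591).

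Between max1 and max3, 0 members were called higher (0.132% of all probe sets) and 1 lower (0.229% of all), with 3 higher and 13 lower at an unadjusted p below 0.05, where 6.01% of all probe sets passed. The member called was AT1G26380, the berberine bridge enzyme-like gene. It held 3.92, 4.17 and 5.46 in max2, 3.89, 4.88 and 3.91 in max1, 6.31, 6.26 and 6.44 in max3, and 3.55, 4.60 and 3.69 in intact plants. The 3 max3 arrays were tightly grouped above all arrays of the other mutants and of intact plants. The max1 minus max3 difference was -2.11 (SE 0.40, limma, adjusted p = 0.0293), lost without max1 replicate 1 or 3 (adjusted p = 0.158 and 0.128) or any one of the max3 arrays (0.1, 0.0813 and 0.128). AT1G26380 rose by 2.39 (SE 0.40) in max3 against intact (limma, adjusted p = 0.0061), a call kept without any single array and lost with only max3 and intact arrays in the fit (adjusted p = 0.0597). Without max1 replicate 2, another member was called higher in max1 than in max3, a count of 1.

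Members with an intact mean below 3.5 that stayed there in the mutants formed a last pattern. Besides AT1G10585, the genes AT2G15780, AT3G11930 and AT5G06570 lay below 3.5 on all 12 mutant and intact arrays, as did 4 probe sets without a gene name. AT3G13610, AT4G39675 and AT2G41800 did so apart from 1 array each, at 3.60 in max3, 4.92 in max1 and 3.5025 in max1. At that end of the scale a fall below intact could not be seen. A rise past 3.5 could be seen, and in the genes named in this paragraph it appeared only on the single arrays just given. Among probe sets without a gene name, 251428_at reached 3.67 in max3 and 245976_at reached 3.51 in max2.

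The members nearest the threshold show how finely it cuts. Just inside lay AT1G36060, with its smallest difference of 2.00 in decapitated + IAA, AT2G17740, a C1 domain gene, with 2.01 with NPA, and ARL, with 2.08 after decapitation. Just outside lay AT5G58390 with 1.96 with NPA, AT1G33790 with 1.93 after decapitation, and Prx37 with 1.89 with NPA.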

How the data were processed

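Values were the deposited log2 expression values of 21 ATH1 arrays, used as the authors deposited them. Per the submitters' processing notes RMA, GCRMA and R 3.2.2 were used, and which of RMA and GCRMA gave these values is not given in the sources used here. Of 22810 probe sets, 64 controls were left out. The probe table named 1 gene for 13513 of the others, several for 503 and none for 8730. The members and gene lists were chosen with earlier results of these data known.

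Differences between group means were fitted with limma 3.58.1 in R 4.3.3 on all 21 arrays, with moderated variances and Benjamini-Hochberg adjustment over all 22746 probe sets at an adjusted p of 0.05. The fit was also run on simulated arrays with known changes in max2 against max1 and max3. The number of arrays limits the precision. Per the labels, treatments of each replicate were performed together, so the replicate numbers pair the samples. Residuals of arrays with the same number correlated at a median of 0.361 (0.427, 0.127 and 0.401 for numbers 1, 2 and 3), against -0.123 for different numbers. The block with replicate number was run as an alternative. Unless a setting is named, the printed SEs, counts and adjusted p values come from the fit without this pairing.

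Array values are printed for the 8 named members with the highest mean difference, the 6 highest and 6 lowest in IAA minus decapitated, and those called between mutants or in all 3 mutants. Those of AT1G36060, AT5G06570, AT5G18470, FDH, JRG21, AT2G38240 and UGT73B5 were added after their values were seen. Gene lists count a gene by the probe set naming it alone with the highest mean. A planned count of promoter motifs was not run, since no promoter sequence was used here.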

Additional observations from a re-analysis of the deposited data

How the results depend on the processing

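Of 290 counts of members under alternative settings, 234 stayed within 1.5 times the reported count and 56 did not. The rule gave 123 members at a threshold of 1.5 and 32 at 2.5. With the replicate block, members called higher were 8 in max1, 6 in max2 and 8 in max3 against intact (697, 590 and 487 of all probe sets). Members called lower were 2 in max1 and 1 in max3 (721 and 484 of all), and 0 were lower in max2 against max1 and max3 (27 of all). Among the calls of single genes recomputed, in the mutant comparisons and for 5 genes outside the set, the block ended only that of 252115_at. Fitting only the groups compared gave 0 higher and 0 lower in max1 (102 and 96 of all probe sets), 1 and 0 in max2 (64 and 42), and 0 higher in max3 (57). It also gave 0 lower in max2 against max1 and max3 (1 of all) and in max1 against max3 (10 of all), and 0 higher with NPA against decapitation. In that last comparison the fit called 0 of all 22746 probe sets in either direction, so its count says nothing about the members. Restricting to the 14669 probe sets with a mean of at least 3.5 gave 2 lower in the pooled mutants (582 of these probe sets) and 8 higher and 2 lower in max1 (497 and 413). It gave 5 higher in max2 (452), and 10 higher and 1 lower in max3 (341 and 236). Subtracting array medians gave 2 lower in max1 (589 of all probe sets) and 1 in max3 (326). An intensity trend with robust estimation gave 1 lower in max3 (201 of all). The cause of these shifts was not tested. Fitting only the groups compared used fewer arrays, and the restriction by mean used fewer probe sets.

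Without 1 array, the higher count ranged from 3 to 9 in the pooled mutants, 2 to 5 in max1 and 2 to 3 in max3, and the lower count from 1 to 2 in the pooled mutants, 1 to 2 in max1, 0 to 1 in max2 and 0 to 1 in max3. It ranged from 0 to 1 for lower in max2 against max1 and max3, and from 0 to 1 for higher and for lower in max1 against max3. In decapitated + IAA against decapitated it ranged from 4 to 8 higher, with 4 without the third decapitated + IAA array. The pooled count of 3 came without intact replicate 1 or 3. A low intact signal limits 21 members.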
